A study of Mus musculus with 15 samples.

Results

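The genes described here encode the transcription factor NF-kB and the proteins that hold it in check: the subunits Nfkb1, Nfkb2, Rel, Rela and Relb, the inhibitors Nfkbia, Nfkbib and Nfkbie, the nuclear inhibitor-like protein gene Nfkbiz, and Tnfaip3, which encodes the enzyme A20. They were chosen by name, as every probe annotated with one of these 10 symbols in the authors' table of normalized values. Of the 25784 probes in that table, 11 carried 9 of the 10 symbols, with 2 probes each for Nfkbia and Nfkbie and 1 for each of the others. Nfkb1 was not analysed here. All 11 probes passed the filter on dim signals, so 9 of 12984 tested genes are members. The measurements come from 15 bead arrays of cultured mouse macrophages that thioglycollate broth had recruited to the peritoneal cavity. FA+LPS cells (4 arrays) were loaded with fatty acid and given bacterial lipopolysaccharide (LPS) at 10 ng/ml, LPS cells (4 arrays) received LPS alone, FA cells (4 arrays) were loaded and received vehicle, and Unstim cells (3 arrays) received vehicle without loading, each for 24 h. All groups shared the culture medium, with 0.5% serum and 5.5 mM glucose. No source used here gives the fatty acid, the mouse strain, the animals' age or sex, or whether cells of several mice were pooled. The labels number the arrays by experiment (1 to 4), so a replicate is an experiment, and experiment 2 has no Unstim array here.

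NF-kB proteins pair up into dimers, and in resting cells inhibitor proteins of the IkB family keep many of these dimers in the cytoplasm. LPS is recognised by Toll-like receptor 4 on macrophages, and the signal runs through adaptor proteins to the IkB kinase complex, which marks the inhibitors for destruction and frees the dimers to enter the nucleus. The freed dimers switch on inflammatory genes, and also genes for their own inhibitors, a textbook negative feedback loop. RelB and p52, the product of Nfkb2, are best known as the dimer of the slower non-canonical pathway.

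The stretches of DNA just before the annotated start of 5 member genes are shown because each holds at least 1 match to the kappaB consensus, the sequence that NF-kB dimers bind. Each line gives the 250 bases before the start, 5′ to 3′ on the gene's own strand, from RefSeq on build GRCm38.p6, with matches in capitals.
Nfkbia, chr12:55492648-55492897, minus strand: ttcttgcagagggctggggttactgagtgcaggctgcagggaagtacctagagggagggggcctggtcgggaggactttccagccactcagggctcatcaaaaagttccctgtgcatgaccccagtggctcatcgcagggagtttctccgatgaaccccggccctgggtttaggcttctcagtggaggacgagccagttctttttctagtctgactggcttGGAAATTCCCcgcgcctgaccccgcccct
Nfkbie, chr17:45555450-45555699, plus strand: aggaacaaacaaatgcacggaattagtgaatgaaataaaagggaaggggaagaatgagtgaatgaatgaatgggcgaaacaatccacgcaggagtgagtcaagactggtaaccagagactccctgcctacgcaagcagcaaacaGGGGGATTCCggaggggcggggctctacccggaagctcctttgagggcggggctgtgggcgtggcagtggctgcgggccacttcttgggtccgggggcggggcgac
Tnfaip3, chr10:19015411-19015660, minus strand: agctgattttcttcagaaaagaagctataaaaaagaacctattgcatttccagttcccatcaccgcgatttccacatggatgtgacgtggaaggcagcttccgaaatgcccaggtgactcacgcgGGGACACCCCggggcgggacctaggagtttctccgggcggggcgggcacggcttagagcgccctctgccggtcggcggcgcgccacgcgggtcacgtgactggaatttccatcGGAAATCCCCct
Nfkb2, chr19:46304487-46304736, plus strand: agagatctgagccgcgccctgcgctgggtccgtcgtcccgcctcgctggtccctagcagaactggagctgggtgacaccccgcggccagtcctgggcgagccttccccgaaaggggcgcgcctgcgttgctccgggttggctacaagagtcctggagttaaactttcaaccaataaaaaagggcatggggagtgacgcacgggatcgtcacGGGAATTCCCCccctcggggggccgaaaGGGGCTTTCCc
Rel, chr11:23770970-23771219, minus strand: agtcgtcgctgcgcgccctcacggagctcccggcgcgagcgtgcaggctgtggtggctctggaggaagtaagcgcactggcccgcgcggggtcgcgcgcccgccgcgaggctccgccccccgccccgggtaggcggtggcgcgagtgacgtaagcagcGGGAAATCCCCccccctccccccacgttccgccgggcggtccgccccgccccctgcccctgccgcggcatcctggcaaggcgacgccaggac
In Nfkbia the match lies 29 to 20 bases before the start. In Nfkbie it lies 106 to 97 bases before. Tnfaip3 has matches 125 to 116 and 12 to 3 bases before its start, Nfkb2 has them 39 to 29 and 11 to 2 bases before, and that of Rel lies 92 to 82 bases before. A 10-letter match that reads on both strands, or a pair that overlaps by all but 1 letter, was counted as 1 match.

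The search covered windows of 300 bases, 250 before and 50 after each start, on both strands, and 7 members had at least 1 window (10 windows in all). The kappaB consensus was present for 5 of these 7 genes, against 9.55% of the 27025 genes with a window. The narrower motif GGGNNTTTCC fixes more letters than the consensus but allows any base at position 4, where the consensus takes A or G. It is therefore not a subset of the consensus. This motif was present for 4 of the 7, against 1.89% of the 27025 genes. The gene that matched the consensus and not the narrower motif was Nfkbie. Rela and Nfkbib have no match to either motif in their windows. Relb and Nfkbiz were not searched. Both other Nfkb2 windows also hold matches, 1 of which is the same site read in both, while a second Tnfaip3 window holds none. These matches are a description of the sequence and not of binding.

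**Figure D1:**
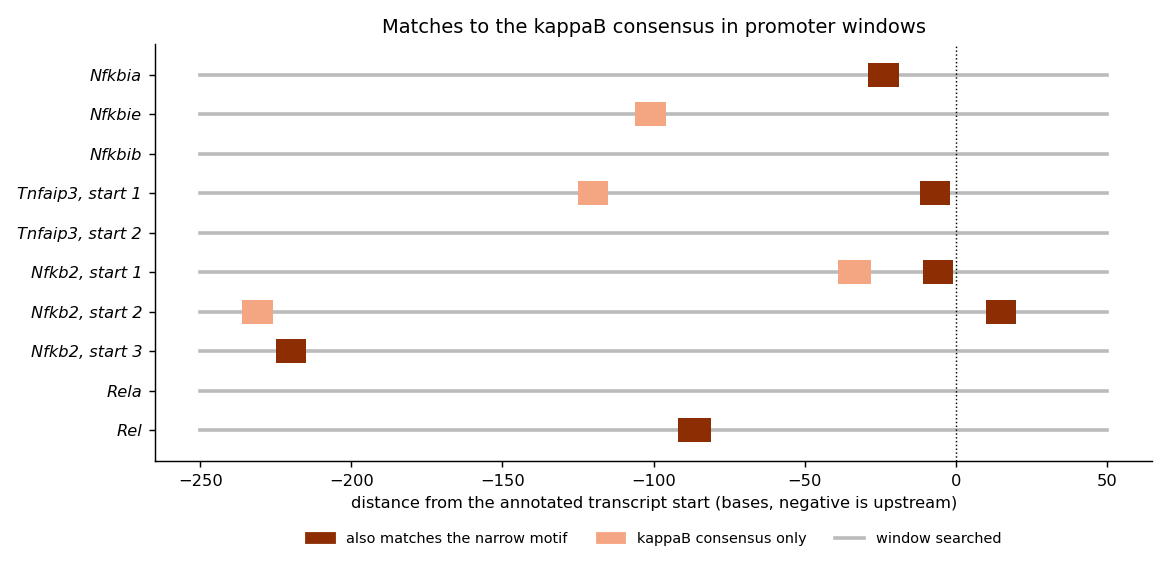
Position of matches to the kappaB consensus in the 10 promoter windows of 7 member genes, in bases from the annotated start (horizontal axis), with 1 row per start. Dark boxes also match the narrower motif GGGNNTTTCC, pale boxes match the consensus only, and Rela and Nfkbib have no box.

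The quality of the arrays and the identity of the cells bear on all values below. On each array, 15781 to 18998 probes of the normalized table were above background, taken as the 95th percentile of the 19497 probes outside that table, and FA replicate 1 gave the lowest number, with 17970 or more on the other 14. Of 10 macrophage markers 9 were tested, and their summed linear signal lay between 21750 and 35510 in FA+LPS cells, 19420 and 26680 in LPS cells, 24040 and 26770 in FA cells, and 24360 and 26650 in Unstim cells. The brightest of the 9, Lyz2 (mean 14.46 log2 units in Unstim cells), weighs most in these sums. In LPS cells 4 of the 9 were higher than in Unstim cells and 2 lower, against 8.96% and 13.3% of all genes. Adgre1 (1.81), Fcgr1 (1.06), Msr1 (0.90) and Cd14 were higher, and Mertk (-0.85) and Lyz2 (-0.71) lower. Of the listed markers of other cells, the T cell genes Cd3e, Cd3d and Cd3g, the B cell gene Cd79a and the neutrophil gene Ly6g were not tested. Some markers of other cells also moved with LPS. The summed signal of 6 of 9 neutrophil markers was 1342 to 2238 in FA+LPS cells and 896.3 to 1319 in LPS cells. It was 654.4 to 728.7 in FA cells and 623.5 to 732.1 in Unstim cells. For 5 of 7 dendritic cell markers it was 583.7 to 894.8, 533.8 to 1047, 342.9 to 382.4 and 339.1 to 378 in FA+LPS, LPS, FA and Unstim cells, and for 7 of 8 mesothelial and fibroblast markers 722.7 to 1130, 787.4 to 1035, 489.2 to 514.3 and 486 to 523.2. The called increases behind these sums were S100a8 and Camp for neutrophils, Batf3 for dendritic cells and Dcn for fibroblasts. Among the same neutrophil markers Ltf was lower with LPS (-0.53 for LPS against Unstim and -0.52 for FA+LPS against FA), and Elane, Mpo and Cxcr2 were not called. In the T and NK cell list 1 of 7 was tested, Il7r, at 496 to 920.5, 630.3 to 956.7, 994.4 to 2443 and 1360 to 2101. In the B cell list 3 of 6 were tested, at 211.2 to 245.3, 204.8 to 235.6, 254.4 to 262.7 and 244.3 to 272.3, and in the eosinophil and mast cell list 2 of 7, at 133.6 to 165, 148.5 to 294.8, 123.3 to 133.7 and 127.1 to 129.8. The part of such cells in the results was not tested, and in bulk RNA fewer cells of a type and less RNA per cell cannot be told apart.

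LPS raised the 9 measured members by between 1.22-fold (Nfkbib) and 7.99-fold (Nfkbia). All 9 were higher in LPS cells than in Unstim cells, at a limma adjusted p below 0.05, in a comparison in which 8.96% of all tested genes were called higher. The median log2 difference of the members was 1.40, against -0.01 over all tested genes. In loaded cells 8 of 9 were higher in FA+LPS cells than in FA cells (8.39% of all genes), with a median of 1.32, against -0.01, and the exception was Nfkbib. For all 9 genes the arrays of the LPS cells lay above every Unstim array, and the FA+LPS arrays above every FA array, while 12.3% and 9.69% of all genes separated in that direction. Within the experiments, the difference was above 0 for all 9 genes in 3 of 3 experiments for LPS against Unstim and in 4 of 4 for FA+LPS against FA. The share of all genes above 0 in every experiment was not computed. The sizes differed widely, and the members are taken in turn below by role, the inhibitors first.

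**Figure D2:**
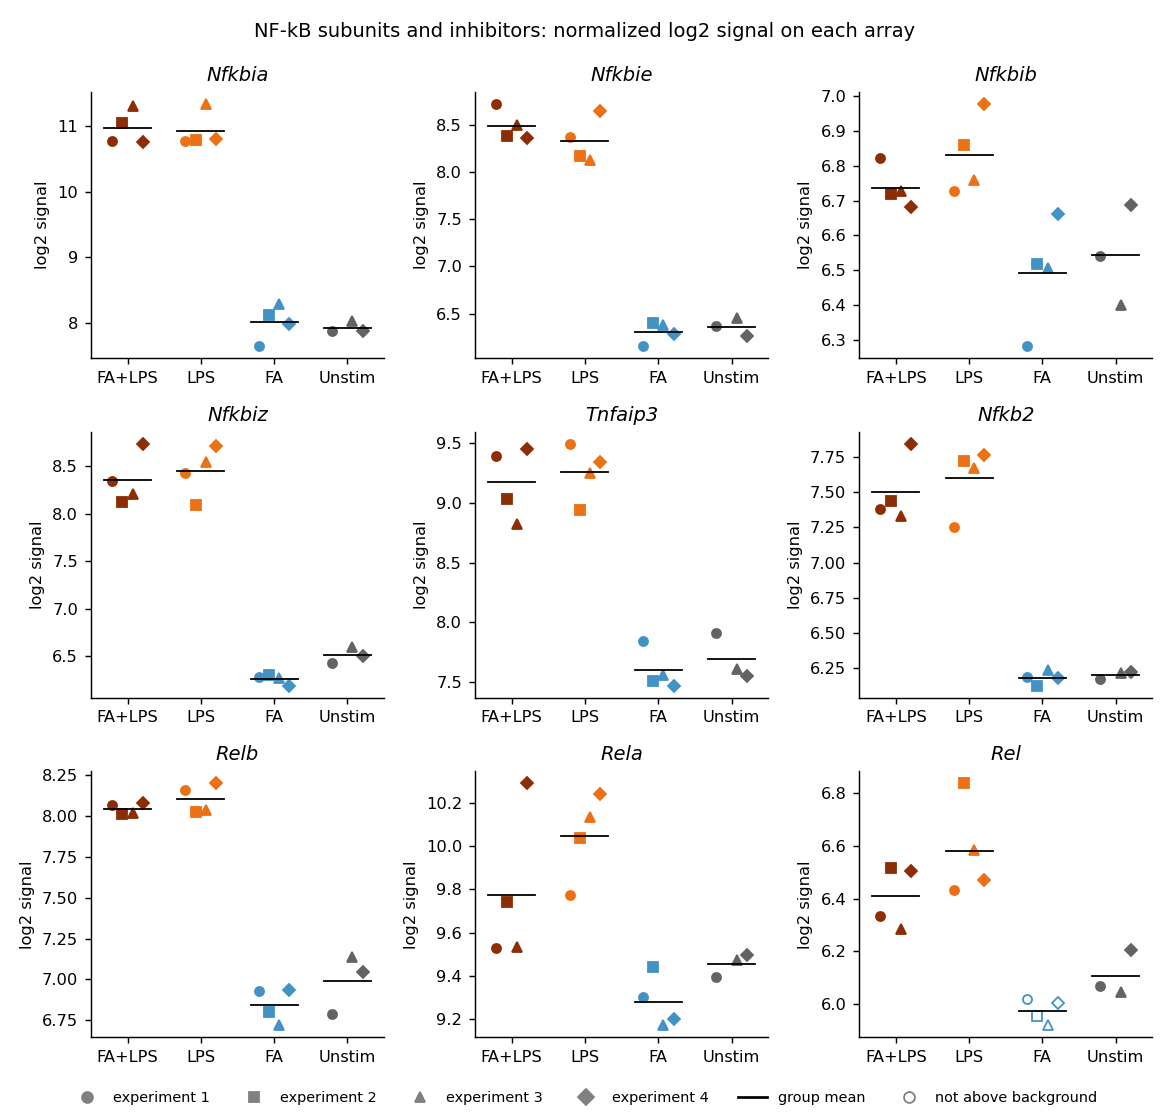
Normalized log2 signal (vertical axis, a scale of its own for each gene) of the 9 members on each of the 15 arrays, by group, with marker shapes for the experiments, a line at each group's mean and open markers where the probe was not above background. In every panel the points of the LPS cells lie above those of the Unstim cells and the FA+LPS points above the FA points, most widely for Nfkbia.

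Nfkbia encodes IkB-alpha, the inhibitor that is degraded first after LPS and then made anew. Its brighter probe (ILMN_3001914) read 10.77, 11.04, 11.30 and 10.76 log2 units in FA+LPS cells and 10.77, 10.78, 11.33 and 10.80 in LPS cells, against 7.64, 8.12, 8.29 and 7.98 in FA cells and 7.88, 8.02 and 7.87 in Unstim cells. The groups with LPS stood about 3 units above those without it and did not overlap them. The log2 difference between LPS and Unstim cells was 3.00 ± 0.17 (SE from limma, 7.99-fold, adjusted p = 1.31e-08), the highest of the 9 members, and that between FA+LPS and FA cells was 2.96 ± 0.16 (7.78-fold, adjusted p = 5.23e-09). The second probe of Nfkbia (ILMN_1218605) gave smaller differences in the same direction, 1.24 ± 0.15 and 1.49 ± 0.14, both called in a fit of all probes in which 7.68% and 7.23% were called higher. That probe read 7.18, 7.43, 7.57 and 8.05 in FA+LPS cells and 7.13, 7.34, 7.48 and 7.49 in LPS cells, against 5.92, 6.12, 6.09 and 6.11 in FA cells and 6.05, 6.11 and 6.19 in Unstim cells. It lay close to background without LPS, where it passed on 3 of 4 FA arrays and 3 of 3 Unstim arrays. The size of the Nfkbia response therefore differs between its probes, and its direction does not.

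Nfkbie encodes IkB-epsilon, another NF-kB inhibitor that is itself induced by NF-kB. The probe that stood for the gene (ILMN_2690551) read 8.72, 8.39, 8.50 and 8.36 in FA+LPS cells and 8.37, 8.17, 8.13 and 8.64 in LPS cells, against 6.15, 6.40, 6.38 and 6.28 in FA cells and 6.37, 6.45 and 6.26 in Unstim cells. Every array with LPS was above every array without it. The differences were 1.97 ± 0.12 for LPS against Unstim (3.91-fold, adjusted p = 2.60e-08) and 2.19 ± 0.11 for FA+LPS against FA (4.56-fold, adjusted p = 2.95e-09). Its second probe (ILMN_1238752) rose by 1.26 ± 0.19 and 1.09 ± 0.18. Without LPS that probe lay close to background and passed on 3 of 4 FA arrays and 2 of 3 Unstim arrays. It read 6.76 to 7.52 in FA+LPS cells and 6.85 to 7.68 in LPS cells, against 5.93 to 6.26 in FA cells and 5.91 to 6.22 in Unstim cells.

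Nfkbib, which encodes IkB-beta, moved least. It read 6.82, 6.72, 6.73 and 6.68 in FA+LPS cells and 6.73, 6.86, 6.76 and 6.98 in LPS cells, against 6.28, 6.52, 6.51 and 6.66 in FA cells and 6.54, 6.40 and 6.69 in Unstim cells. The LPS arrays lay narrowly above the Unstim arrays and the FA+LPS arrays narrowly above the FA arrays, while FA+LPS and Unstim cells overlapped. The difference between LPS and Unstim cells was 0.29 ± 0.09 (1.22-fold, adjusted p = 0.0381), and that between FA+LPS and FA cells was 0.24 ± 0.09 and was not called (limma adjusted p = 0.0620). With the experiment as a block the second difference passed (0.24, adjusted p = 0.0390). The first did not pass with the slide as a block (0.26, adjusted p = 0.101), and within slides 1 and 3 it was 0.19 and 0.21. It also missed the threshold under 8 other settings, among them leaving out LPS replicate 2, LPS replicate 4, FA replicate 2, Unstim replicate 1 or Unstim replicate 3 (adjusted p = 0.0781, 0.108, 0.0504, 0.0971 and 0.190, from limma).

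Nfkbiz encodes IkB-zeta, a nuclear member of the IkB family that LPS induces in macrophages and that is needed for a group of secondary response genes. Its values were 8.34, 8.12, 8.20 and 8.73 in FA+LPS cells and 8.43, 8.09, 8.54 and 8.71 in LPS cells, against 6.29, 6.31, 6.27 and 6.19 in FA cells and 6.43, 6.60 and 6.50 in Unstim cells. The difference with LPS was 1.93 ± 0.14 without loading (3.82-fold, adjusted p = 1.60e-07) and 2.08 ± 0.13 with it (4.24-fold, adjusted p = 3.10e-08).

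Tnfaip3 encodes A20, a ubiquitin-editing enzyme that shuts down signalling upstream of the IkB kinases. It read 9.40, 9.03, 8.82 and 9.45 in FA+LPS cells and 9.50, 8.95, 9.25 and 9.34 in LPS cells, against 7.85, 7.51, 7.56 and 7.47 in FA cells and 7.91, 7.60 and 7.55 in Unstim cells. In experiment 1 the values without LPS were the highest of their groups, and they still lay below every array with LPS. The differences were 1.57 ± 0.16 for LPS against Unstim (2.97-fold, adjusted p = 4.69e-06) and 1.58 ± 0.15 for FA+LPS against FA (2.99-fold, adjusted p = 2.10e-06).

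Among the subunits, the log2 differences of Nfkb2 and Relb, the genes of the non-canonical dimer, lay above those of Rela and Rel, an order between genes that was not tested. Nfkb2, which encodes the precursor p100 and its product p52, read 7.38, 7.44, 7.33 and 7.85 in FA+LPS cells and 7.25, 7.72, 7.67 and 7.77 in LPS cells, against 6.19, 6.12, 6.23 and 6.18 in FA cells and 6.17, 6.21 and 6.22 in Unstim cells. It differed by 1.40 ± 0.13 between LPS and Unstim cells (2.65-fold, adjusted p = 1.18e-06) and by 1.32 ± 0.12 between FA+LPS and FA cells (2.50-fold, adjusted p = 1.01e-06). The values without LPS were tight, with an SD of 0.04 in FA cells and 0.03 in Unstim cells, against 0.23 in FA+LPS cells and 0.24 in LPS cells. They lay close to the lowest signal that counted as above background, 6.04 on FA arrays and 6.03 on Unstim arrays. The offset added in background correction shrinks differences of dim probes. Over 26 other settings the difference between LPS and Unstim cells lay between 1.33 and 2.01. Relb read 8.07, 8.01, 8.02 and 8.08 in FA+LPS cells and 8.16, 8.03, 8.04 and 8.20 in LPS cells, against 6.93, 6.80, 6.72 and 6.94 in FA cells and 6.79, 7.14 and 7.05 in Unstim cells. Its 8 arrays with LPS lay within a narrow band. The differences were 1.11 ± 0.08 (2.17-fold, adjusted p = 1.94e-07) without loading and 1.20 ± 0.08 (2.30-fold, adjusted p = 3.94e-08) with it.

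Rela encodes p65, the transactivating subunit of the canonical dimer. It read 9.53, 9.74, 9.53 and 10.29 in FA+LPS cells and 9.77, 10.04, 10.14 and 10.24 in LPS cells, against 9.30, 9.44, 9.17 and 9.20 in FA cells and 9.39, 9.47 and 9.50 in Unstim cells. FA+LPS replicate 4 stood above the other arrays of its group. The difference between LPS and Unstim cells was 0.59 ± 0.16 (1.51-fold, limma adjusted p = 0.0129), and that between FA+LPS and FA cells was 0.50 ± 0.15 (1.41-fold, limma adjusted p = 0.0253). Without FA+LPS replicate 4 the second difference was 0.32 (limma adjusted p = 0.0469), and it missed the threshold without FA replicate 1, FA replicate 3 or FA replicate 4 (limma adjusted p = 0.05005, 0.0696 and 0.0659). The first missed it without Unstim replicate 1 (0.56, limma adjusted p = 0.0518). When arrays were scaled by their medians instead of quantile normalized, the 2 differences were 0.89 and 1.00, with limma adjusted p-values of 0.204 and 0.106.

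Rel encodes c-Rel, a subunit best known in lymphocytes and myeloid cells. Its probe was close to background: it passed on all arrays of FA+LPS, LPS and Unstim cells and on 0 of 4 arrays of FA cells. It read 6.34, 6.52, 6.28 and 6.51 in FA+LPS cells and 6.43, 6.84, 6.58 and 6.47 in LPS cells, against 6.02, 5.96, 5.92 and 6.00 in FA cells and 6.07, 6.05 and 6.21 in Unstim cells. The difference between LPS and Unstim cells was 0.47 ± 0.09 (1.39-fold, limma adjusted p = 0.00160). Since it was not well above background in FA cells, Rel was at least 1.29-fold higher in FA+LPS cells than in FA cells. That bound is set against the lowest signal that counted as above background on the FA arrays, and it was not tested. The difference of the measured values, 0.44, had a limma adjusted p of 0.00173. Measured means were 6.41 and 5.97. The offset added in background correction shrinks differences of dim probes: with an offset of 16 in place of 50, Rel differed by 0.81 between LPS and Unstim cells.

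**Figure D3:**
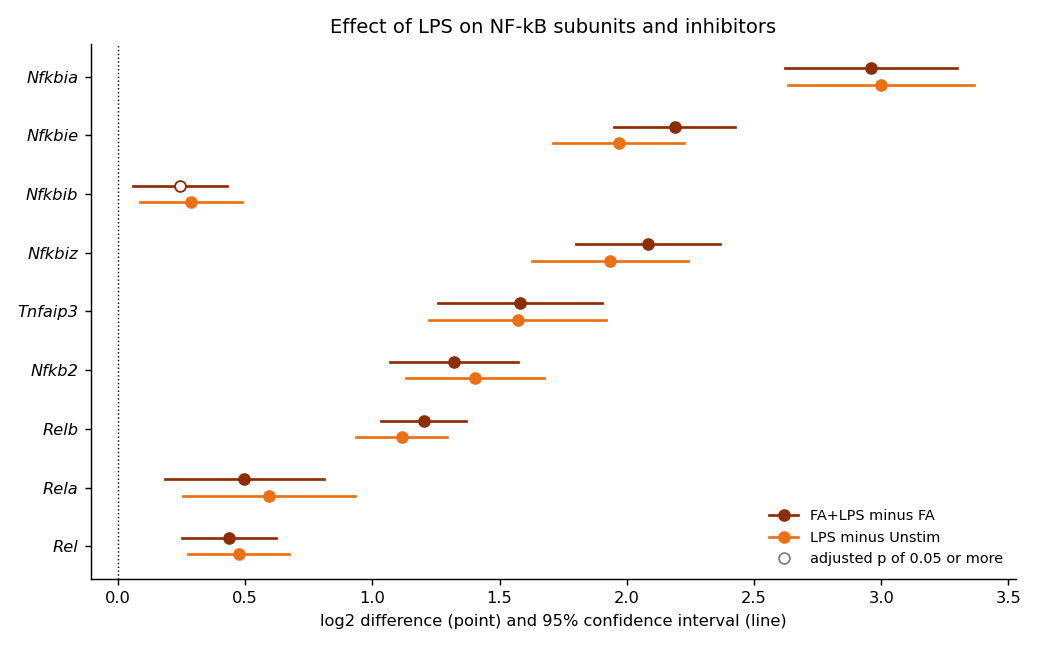
Log2 difference made by LPS in loaded cells (FA+LPS minus FA) and in cells without loading (LPS minus Unstim) for the 9 members, with 95% confidence intervals as lines and an open point where the adjusted p was 0.05 or more. Nfkbia stands near 3.00, Nfkbie, Nfkbiz, Tnfaip3, Nfkb2 and Relb between 1.11 and 2.19, and Rela, Rel and Nfkbib below 0.60.

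Fatty acid loading alone left no member past the threshold. Between FA and Unstim cells 0 of 9 members were called, in a comparison that called 0.00770% of all tested genes (1 of 12984), and 0 of 9 had an unadjusted p below 0.05 in limma. The log2 differences lay between -0.25 (Nfkbiz) and 0.09 (Nfkbia), with a median of -0.09, against -0.00109 over all genes. For Nfkbiz the 4 FA arrays, 6.19 to 6.31, lay below the 3 Unstim arrays, 6.43 to 6.60, a separation in that direction that 2.69% of all genes show. Its difference was -0.25, with a 95% confidence interval from -0.55 to 0.06. Rel also separated in that direction, at 5.92 to 6.02 in FA cells against 6.05 to 6.21 in Unstim cells (-0.13, interval from -0.33 to 0.07), with no FA array above background. Within the experiments, Rel, Rela, Nfkbiz and Tnfaip3 were lower in FA cells than in Unstim cells in 3 of 3. They differed by 0.05 to 0.20, 0.09 to 0.30, 0.14 to 0.33 and 0.05 to 0.08 log2 units, and the other 5 genes went both ways. The share of all genes lower in 3 of 3 was not computed, so these counts have no background to be set against. The size for Rel rests on FA values that were not above background. The confidence intervals of the 7 genes other than Nfkbiz and Rel ran from -0.51 at the lowest (Rela) to 0.45 at the highest (Nfkbia).

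Loading did not move the members past the threshold in LPS-treated cells either. Between FA+LPS and LPS cells 0 of 9 were called, against 0.685% of all tested genes (89 of 12984), and 0 of 9 had an unadjusted p below 0.05 in limma. This fit did not model the experiments. With the experiment as a block 0 of 9 were called as well, against 2.65% of all tested genes (344 of 12984). In the main fit the differences ran from -0.27 for Rela (interval from -0.59 to 0.04) to 0.17 for Nfkbie (interval from -0.07 to 0.40). The second Nfkbie probe had the opposite sign, at -0.11 (interval from -0.49 to 0.26). The second Nfkbia probe gave 0.19 (interval from -0.11 to 0.49), and neither was called. For Nfkbia the difference was 0.05 (interval from -0.29 to 0.39), for Nfkbiz -0.10 (from -0.38 to 0.19) and for Tnfaip3 -0.08 (from -0.41 to 0.24). Relb was lower in FA+LPS cells in 4 of 4 experiments, by 0.01 to 0.12 log2 units, and its interval ran from -0.23 to 0.11. The share of all genes lower in 4 of 4 was not computed. The intervals of the 9 genes, each by the probe that stood for it, lay between -0.59 and 0.40. The neutrophil marker S100a8 was higher in FA+LPS cells than in LPS cells (1.11), the other 5 tested neutrophil markers were not called, and the part of neutrophils in these values was not tested.

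**Figure D4:**
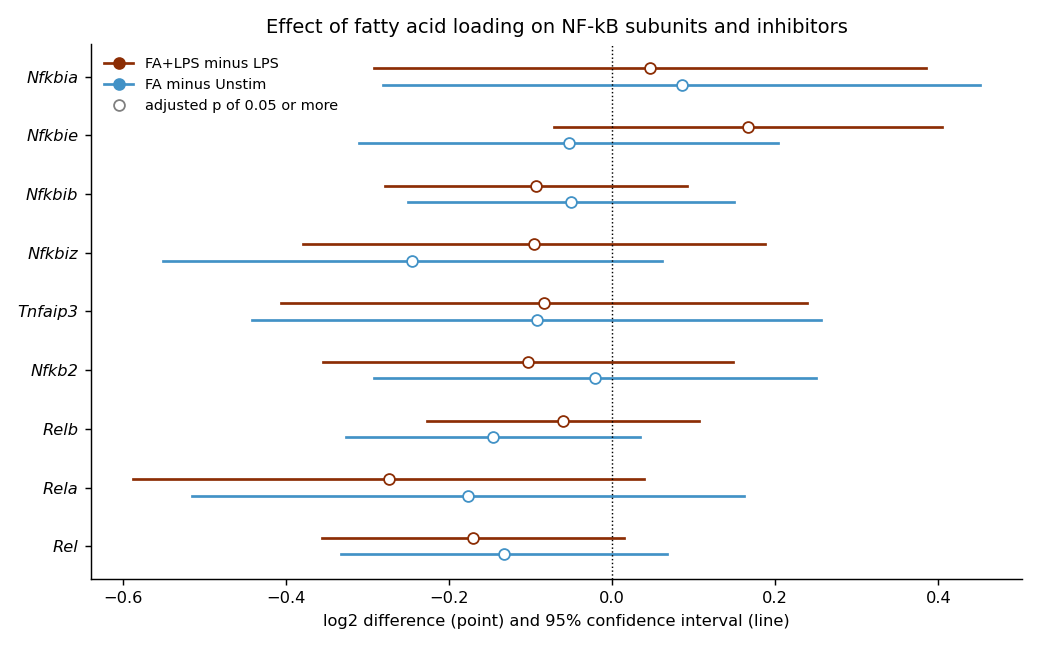
Log2 difference made by fatty acid loading with LPS (FA+LPS minus LPS) and without it (FA minus Unstim) for the 9 members, with 95% confidence intervals as lines. All 18 intervals include 0 and no point is filled, since no adjusted p was below 0.05.

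The interaction, which asks whether the effect of loading differs with LPS, was called for 0 of 9 members (0.0462% of all tested genes), with 0 of 9 at an unadjusted p below 0.05. It lay between -0.10 for Rela and 0.22 for Nfkbie (interval from -0.13 to 0.57). The second Nfkbie probe had the opposite sign, at -0.17 (interval from -0.73 to 0.38). The second Nfkbia probe gave 0.25 (interval from -0.19 to 0.69), and neither was called. Set against Unstim cells, FA+LPS cells were higher for 7 of 9 members (7.56% of all genes called higher). The other 2 were Rela (0.32 ± 0.16, limma adjusted p = 0.218) and Nfkbib (0.19 ± 0.09, limma adjusted p = 0.201). Rel, called in this comparison at 0.30 ± 0.09 (limma adjusted p = 0.0339), was not called with the slide as a block (0.25, adjusted p = 0.108), and it lost its call without FA+LPS replicate 2, FA+LPS replicate 4, Unstim replicate 1 or Unstim replicate 3 (0.27, 0.27, 0.29 and 0.27).

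The order of the group means was nearly the same in all members. In 9 of 9 genes both groups with LPS had higher means than both groups without it. The shares of all genes with this order, or with the highest and lowest groups given next, were not computed. LPS cells had the highest mean for 7 genes and FA+LPS cells for Nfkbia and Nfkbie, and FA cells had the lowest for 8 genes and Unstim cells for Nfkbia. Parts of this order depend on the probe. The second Nfkbia probe was also highest in FA+LPS cells, but lowest in FA cells (6.06, against 6.12 in Unstim cells). The second Nfkbie probe was highest in LPS cells (7.32, against 7.21 in FA+LPS cells) and lowest in Unstim cells (6.06, against 6.12 in FA cells). Neighbours at either end of the order, FA+LPS with LPS and FA with Unstim, did not pass the test in any gene, and FA+LPS against Unstim did not pass for Rela and Nfkbib, in whose order these 2 groups are neighbours.

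The arrays were hybridised on 3 slides, as their barcodes show, and slide 2 held no Unstim array. Within each slide that held both groups, the 9 members were higher with LPS, on slides 1 and 3 for LPS against Unstim and on slides 1, 2 and 3 for FA+LPS against FA. The share of all genes higher within every such slide was not computed. For Nfkbia the values within slides 1 and 3 were 2.89 and 3.38 for LPS against Unstim, and within slides 1, 2 and 3 they were 2.96, 2.78 and 3.01 for FA+LPS against FA. For Rela they were 0.38 and 0.65, and 0.28, 0.58 and 0.36. With the slide as a block Nfkbia differed by 3.12 and 2.94 and Rela by 0.46 and 0.41, and these 4 values were called.

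Further genes of the NF-kB system were taken as 5 lists. In the list of upstream signalling from Toll-like receptor 4 to the IkB kinases, 4 of 20 tested genes were higher in LPS cells than in Unstim cells and 2 were lower (8.96% and 13.3% of all genes), with a median of 0.09, against -0.01 over all genes. Cd14, the LPS co-receptor, which is also one of the macrophage markers, rose by 1.88 ± 0.26, the ubiquitin ligase gene Traf6 by 0.75 ± 0.17 and the adaptor gene Myd88 by 0.65 ± 0.20. Ube2n, whose product partners ubiquitin ligases such as TRAF6, was lower (-0.66 ± 0.09), and so was the adaptor gene Ticam2 (-0.58 ± 0.14). The kinase subunit genes Ikbkb (0.09 ± 0.13) and Ikbkg (0.01 ± 0.11) were not called, and Chuk was not tested. Between FA+LPS and FA cells 1 of the 20 was higher, Cd14 (2.84), and 2 were lower (8.39% and 11.4% of all genes).

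Around A20, single partners moved and most did not pass the test. Of 12 tested genes of the linear ubiquitin ligase complex, the A20 partners and the deubiquitinases, 3 were higher in LPS cells than in Unstim cells and 1 was lower (median 0.11), where 8.96% and 13.3% of all genes were, so that the lower count is no more than that share. Tnip1, whose product binds A20, rose by 1.91 ± 0.19, and Zc3h12a, whose product regnase-1 degrades inflammatory mRNAs, by 1.55 ± 0.13. Rnf31, the catalytic subunit of the linear ligase, rose by 0.96 ± 0.17, and Otulin, which removes linear chains, was lower (-0.37 ± 0.10). Tnip3 was not tested. Between FA+LPS and FA cells 3 were higher and 1 lower, against 8.39% and 11.4% of all genes. Among 11 further IkB family members and cofactors, 3 were higher and 2 lower in LPS cells than in Unstim cells (median -0.01), with the lower count again near the 13.3% of all genes. Pdlim2, which promotes the breakdown of nuclear p65, rose by 0.93, the atypical IkB gene Bcl3 by 0.90 and Commd1 by 0.36, whereas Pias1 (-0.67) and the acetyltransferase gene Ep300 (-0.44) were lower. Between FA+LPS and FA cells 3 were higher and 3 lower, against the same 8.39% and 11.4%.

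The list drawn up for the non-canonical pathway also holds Malt1 and Bcl10. Of its 13 tested genes, 4 were higher in LPS cells than in Unstim cells and 0 lower, against 8.96% and 13.3% of all genes. Their median was 0.21. The receptor gene Cd40 rose by 3.52, the adaptor gene Traf1 by 3.30 and the TNF receptor gene Tnfrsf1b by 2.38. Birc3 was at least 1.11-fold higher, since it was not well above background on any Unstim array. Map3k14, the kinase that starts processing of p100, was not called (0.21). Between FA+LPS and FA cells 5 were higher and 0 lower, against 8.39% and 11.4% of all genes. Of 32 tested textbook NF-kB target genes, among them Traf1 and Birc3, 27 were higher in LPS cells than in Unstim cells and 0 were lower. Of all genes, 8.96% and 13.3% were, and the median of the 32 was 1.51. The highest differences were those of the cytokine gene Il1b (7.84) and the chemokine genes Cxcl1 (6.49) and Ccl5 (6.44). The chemokine gene Cxcl2 followed at 5.84 and Lcn2, whose product lipocalin-2 binds iron-carrying siderophores, at 5.58. Between FA+LPS and FA cells 23 were higher and 1 was lower, against 8.39% and 11.4% of all genes. The lower gene, Bcl2l1 (-0.85), is named after its values were seen. In all 5 lists 0 genes were called between FA and Unstim cells (0.00770% of all genes) and 0 between FA+LPS and LPS cells (0.685%). The target genes nevertheless had a median of -0.28 for FA+LPS against LPS, against 0.00656 over all genes. Cd40 was 2.18-fold lower in that comparison (-1.12 ± 0.24) and just missed the threshold (limma adjusted p = 0.0501). Calls in the lists were not counted with the experiment as a block.

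**Figure D5:**
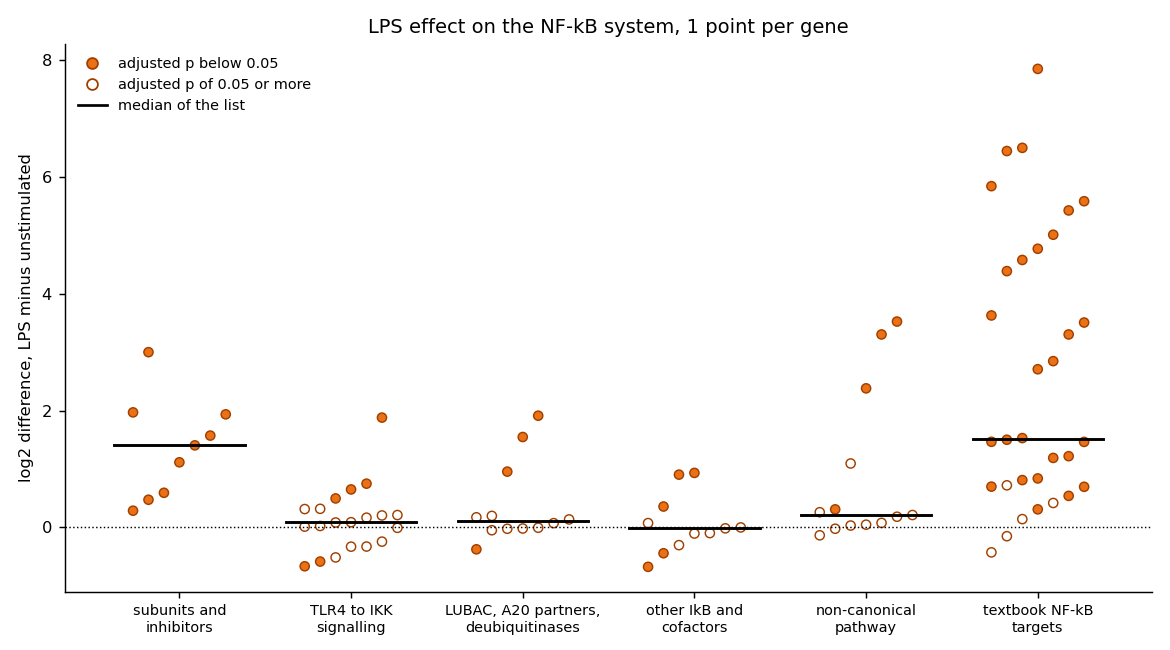
Log2 difference between LPS and Unstim cells for each tested gene of the 9 members and of 5 lists of the NF-kB system, with filled points for genes below an adjusted p of 0.05 and a line at each median. The members' median is 1.40 and that of the target genes 1.51, while those of the other 4 lists lie between -0.01 and 0.21.

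Among all other tested genes, those whose pattern lay nearest to a member's were found by the Euclidean distance over 3 log2 differences, those of FA, LPS and FA+LPS cells from Unstim cells. For Nfkbia they were the complement factor gene Cfb (distance 0.161), Socs2 (0.193) and Ms4a6d (0.283). For Nfkbie they were Marcksl1 (0.110), Agrn (0.139) and Lmo4 (0.145). The genes nearest to Nfkbiz were Tnip1 (0.0657), the phosphatase gene Dusp4 (0.118) and Lgals9 (0.179), and those nearest to Tnfaip3 were Slc31a2 (0.0650), Zc3h12a (0.103) and Tgm2 (0.134). The distances rest on 4 group means from 15 arrays.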

How the data were processed

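RNA of cultured macrophages was hybridised as biotin-labelled cRNA in 1 colour. The authors deposited log2 signals of 45281 probes, not normalized between arrays, and a table of normalized log2 values for 25784 of them. That table equals a quantile normalization of the deposited signals to within 0.000949, with a median of 6.03 in every column; no source used here names its software or any background treatment. The deposited log2 signals were turned back to the linear scale, corrected with normexp (offset 50), quantile normalized over all probes and logged again. Probes of the authors' table above background on at least 3 arrays were tested (24195), named from the platform annotation (21476 probes with 1 symbol, 10 with several, 4298 without), and the brightest probe by its mean stood for a gene. Each probe of a member was also tested alone, with adjustment over all 24195 probes.

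One limma fit (version 3.58.1 in R 4.3.3; lmFit, eBayes) on all 15 arrays had group as its only term, 11 residual and 3.2 prior degrees of freedom, 2-sided tests and Benjamini-Hochberg adjustment over all 12984 genes. Called means an adjusted p below 0.05. The number of arrays limits the precision. Experiment numbers come from the labels: the 21 pairs of arrays that share a number correlated at 0.0438 to 0.805 in their deviations from the group means (median 0.222), and the 63 other pairs at a median of -0.0745. The highest values were those of LPS with FA+LPS arrays, at 0.805, 0.699, 0.56 and 0.708 in experiments 1, 2, 3 and 4. The main fit left this pairing out. Members, lists and the naming rule (every member; up to 5 called genes a list by the size of the LPS effect, and 9 fixed ones) were chosen with earlier results of these data known. The fit was tested on simulated data.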

Additional observations from a re-analysis of the deposited data

Results flagged for a closer look

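In a group of 4 arrays, a value counted as standing apart where its gap to the nearest other value as a share of the group's range exceeded Dixon's 95% critical value, and 33 such groups of member probes were searched. The brighter Nfkbia probe met this on LPS replicate 3, at 11.33 log2 units against a mean of 10.78 on the other 3 LPS arrays (gap 0.934 of the range). Chance flags about 1 in 20 groups. On that array's experiment, FA+LPS and FA cells also had their highest Nfkbia values (11.30 and 8.29), and so did Unstim cells (8.02).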

How the results depend on the processing

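The members' differences were recomputed under 26 other settings, 15 of which left out 1 array each, giving 1389 values. Of these, 1365 kept a call and its direction or stayed uncalled, 22 lost the call, 2 gained it and 0 reversed. A value that stayed uncalled counted as kept whatever its sign. Some of these changed sign, such as Nfkbia for FA against Unstim (-0.026 to 0.232) and Tnfaip3 for FA+LPS against LPS (-0.188 to 0.034). The 22 belong to Nfkbib, Rela and Rel and the 2 to Nfkbib. Counts of members called higher ranged from 7 to 9 for LPS against Unstim, 7 to 9 for FA+LPS against FA and 6 to 7 for FA+LPS against Unstim, and were 0 for the other 3 comparisons under every setting run; the interaction was not run on the compared groups alone. With the experiment number as a replicate block 9 members were called for FA+LPS against FA, and no other member's call changed. Median scaling made 927 calls over all genes for LPS against Unstim, against 2892, and 60.0% of these were higher, against 40.2%. For FA+LPS against FA it made 925 calls, against 2567 (75.0% higher, against 42.4%), and for FA+LPS against Unstim 764, against 2376 (64.5%, against 41.3%). The cause was not tested. With median scaling Rel was not called for FA+LPS against Unstim (limma adjusted p = 0.0921). On the groups compared alone, Nfkbib (LPS against Unstim) and Rela (FA+LPS against FA) had limma adjusted p-values of 0.0669 and 0.0651, and Nfkbib had 0.0567 with a trend and robust fit. An offset of 16, chosen after seeing the data, raised the members' median for LPS against Unstim to 1.76. Rel had no value where signal above background on all 15 arrays was required. Dim probes, such as that of Rel and, without LPS, that of Nfkb2, are limited by signal over background.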
